A study of Rattus norvegicus with 6 samples.

Results

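The TGF-β ligands, their receptors and the latent TGF-β binding proteins were followed as 10 genes, chosen by symbol, among the 14475 genes counted in cultured vascular smooth muscle (VSM) cells. The cells were grown from the soleus feed artery (SFA), which brings blood to a postural muscle of the calf. The genes were the ligands Tgfb1, Tgfb2 and Tgfb3, the receptors Tgfbr1, Tgfbr2 and Tgfbr3, and the binding proteins Ltbp1, Ltbp2, Ltbp3 and Ltbp4, and 10 of the 10 were in the table. The cells came from male Fischer 344 rats, 3 young (4 months) and 3 old (24 months), and were grown in medium with fetal bovine serum. The polyadenylated RNA of each of the 6 cultures was sequenced as 1 library, and the comparison asks how the genes differ between old and young VSM cells. A culture shows the cells that attached and grew, not the intact vessel wall.

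TGF-β is secreted as a dimer that stays bound to its own propeptide, and this latent complex is linked through disulfide bonds to an LTBP, which anchors it in the extracellular matrix. Once released, the ligand brings together the type II receptor (Tgfbr2) and the type I receptor (Tgfbr1), and the type I receptor phosphorylates Smad2 and Smad3, which enter the nucleus with Smad4. Tgfbr3, betaglycan, is a co-receptor that presents ligand, TGF-β2 above all. In the vessel wall, TGF-β is known as a driver of matrix synthesis and of contractile gene expression in smooth muscle.

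In old VSM cells Tgfb2 and Tgfb3 were at 0.180 and 0.193 times their young means, whereas Tgfb1 differed by less than the spread between libraries. Among the receptors, Tgfbr2 was at 2.28 times and Tgfbr3 at 3.72 times the young mean, while Tgfbr1 differed by less than its spread. Among the binding proteins, Ltbp4 was at 0.283 and Ltbp2 at 0.575 times the young mean. Of the 10 log2 fold changes 3 were above 0, beside 52% of those of all genes. A gene was called where the adjusted p was below 0.05 and the log2 fold change lay at or beyond 1 in either direction. The quasi-likelihood test of edgeR called 0 of the 10, and 0.00691% of all genes. Before adjustment, 7 of the 10 had an edgeR p below 0.05, 3 of them higher and 4 lower in old cells, beside 22.6% of all genes (11.2% higher and 11.5% lower). The DESeq2 Wald test, the test that the study applied, called 5 of the 10, 2 higher and 3 lower, beside 5.56% of all genes (2.25% higher and 3.31% lower). Without the fold limit 6 of the 10 passed in DESeq2, beside 12.2% of all genes. limma-voom called 0 of the 10 and 0 of all genes. Levels are given as CPM, counts scaled to the TMM-normalized library size, and are compared between libraries for the same gene, not between genes, because no gene length was used.

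The libraries held 44235674 to 59700887 counts on genes. From 68.7% to 71.1% of the counts between 1 and 19 in a library were even numbers, the pattern that counting both mates of a pair gives, and its source was not tested. The 10 genes together took 0.375%, 0.539% and 0.608% of the counts of the young libraries and 0.230%, 0.263% and 0.290% of those of the old. Of the smooth muscle markers 9 of 9 were in the table, with a summed level of 15048 to 26155 CPM in young and 5708 to 8500 CPM in old libraries. Markers of fibroblasts (9 of 9) summed to 679.6 to 1098 CPM in young and 1092 to 2030 CPM in old, and those of pericytes (3 of 5) to 258 to 522 and 104 to 165 CPM. Endothelial markers (5 of 9) summed to at most 43.7 CPM, macrophage markers (3 of 8) to at most 16.8, Schwann cell markers (2 of 6) to at most 4.16 and skeletal muscle markers (2 of 8) to at most 2.88 in a library, and Cdh5, Ptprc, Sox10 and Myod1 had no row. Of the smooth muscle markers 9 of 9 had a lower mean in old cells, and of the fibroblast markers 8 of 9 a higher one. The exception, Mfap5, contributed the most CPM to the fibroblast sum (means of 607 in young and 544 in old). No gene length entered these sums, so they compare libraries, not genes or cell types. Old lay below young without overlap for 8 of the smooth muscle markers (14.7% of all genes). Old lay above young for 3 of the fibroblast markers (14.5%). The part of these markers in the differences below was not tested. In bulk RNA, fewer cells of a type and less RNA per cell cannot be told apart.

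The sequences before the start sites of 3 of the genes are shown, 1 as an example of each outcome. Tgfb1 had levels that overlapped, Tgfbr3 higher and Ltbp4 lower levels in old cells. The table of RefSeq promoters on the rat build GRCr8, which is not the build of the counts, matched 10 of the 10 genes by symbol. For Tgfb2, Tgfb3, Tgfbr2, Ltbp2 and Ltbp3 the window lay within the span of a longer RefSeq gene model and may hold transcribed sequence. It is therefore not printed but is included in the motif counts. The windows of Tgfbr1 and Ltbp1 had 200 and 205 bases outside a gene model and are included too. For Ltbp4 the 235 bases outside a gene model are shown, without the bases nearest the start. Motif positions are counted from the start, not from the end of the printed sequence. Capitals mark GC boxes (GGGCGG on either strand).
Tgfb1, chr1:90324062-90324311, plus strand: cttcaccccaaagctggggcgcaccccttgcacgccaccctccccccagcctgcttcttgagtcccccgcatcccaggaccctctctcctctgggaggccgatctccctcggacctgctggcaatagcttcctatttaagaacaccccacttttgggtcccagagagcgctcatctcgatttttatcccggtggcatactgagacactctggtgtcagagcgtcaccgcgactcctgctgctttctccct
Tgfbr3, chr14:2634044-2634293, plus strand: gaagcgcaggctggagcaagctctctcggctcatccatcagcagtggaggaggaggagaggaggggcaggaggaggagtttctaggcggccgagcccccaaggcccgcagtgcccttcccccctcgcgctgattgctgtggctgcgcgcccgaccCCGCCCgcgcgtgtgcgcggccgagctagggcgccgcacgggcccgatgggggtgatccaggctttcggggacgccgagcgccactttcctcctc
Ltbp4, chr1:91759823-91760057, minus strand: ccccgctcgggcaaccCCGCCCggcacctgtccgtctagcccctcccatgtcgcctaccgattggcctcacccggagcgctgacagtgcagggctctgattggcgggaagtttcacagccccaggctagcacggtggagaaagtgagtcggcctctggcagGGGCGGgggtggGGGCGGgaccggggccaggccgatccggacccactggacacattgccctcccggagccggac
Within 250 bases before the start, a GC box, the site of Sp1-type factors, was found for 6 of the 10 genes (Tgfbr1, Tgfbr2, Tgfbr3, Ltbp2, Ltbp3 and Ltbp4) and in 30.5% of the 33469 RefSeq promoters of that length. The 3 ligands had none. Genes with a GC box included Tgfbr1 and Ltbp3, whose levels overlapped, and those without included Tgfb2 and Tgfb3, lower in old cells. Ltbp4 had GC boxes that began 234, 89 and 77 bases before the start, and Tgfbr3 had 1, at 95 bases. Ltbp1 had the cyclic AMP response element TGACGTCA at 108 bases (1.59% of all promoters), and Tgfb2 the E-box CACGTG at 229 bases (5.59%). The Smad motifs CAGACA (17.2% of all promoters) and GTCTAGAC (0.173%), the AP-1 motif TGACTCA (4.05%), the TATA box TATAAA (12.9%), the MCAT motif CATTCC (12.1%) and the CArG box, the site of serum response factor (1.5%), were in 0 of the 10 windows. Both strands were searched, and these matches describe letters, not bound sites. The promoter shares are over RefSeq promoters, not limited to the genes counted in these cells.

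Tgfb1 (ENSRNOG00000020652), the ligand most widely studied in arterial disease, had 73.2, 96.6 and 98.7 CPM in young replicates 1, 2 and 3 and 69.1, 67.2 and 95.6 CPM in old replicates 1, 2 and 3. The groups overlapped. Its log2 fold change was -0.21, and the 95% interval of the fit ran from -0.66 to 0.23 (adjusted p = 0.512 from edgeR).

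Tgfb2 (ENSRNOG00000002418), the ligand that depends most on betaglycan for binding, had 109, 286 and 521 CPM in the young libraries and 39.3, 59.7 and 66.0 CPM in the old. The old libraries all lay below the young, but the young libraries spanned a wide range, with young replicate 1 nearest to the old. The means were 305 ± 206 and 55.0 ± 14.0 CPM (SD, n = 3 each), and the log2 fold change was -2.47 ± 0.56 (SE; adjusted p = 0.0948 from edgeR and 6.18e-05 from DESeq2). Without young replicate 3, the highest library, the log2 fold change was -1.85 in edgeR and DESeq2 called the gene as well.

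Tgfb3 (ENSRNOG00000009867), the isoform best known from palate and lung development, had 1215, 2283 and 3172 CPM in young and 446, 183 and 660 CPM in old libraries. The 3 old libraries were below the 3 young ones here too. The log2 fold change was -2.37 ± 0.55 (SE; adjusted p = 0.0982 from edgeR and 0.000105 from DESeq2), and it stayed between -2.82 and -2.01 in edgeR with each library left out in turn. DESeq2 called Tgfb2 and Tgfb3 in each of those fits.

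**Figure D1:**
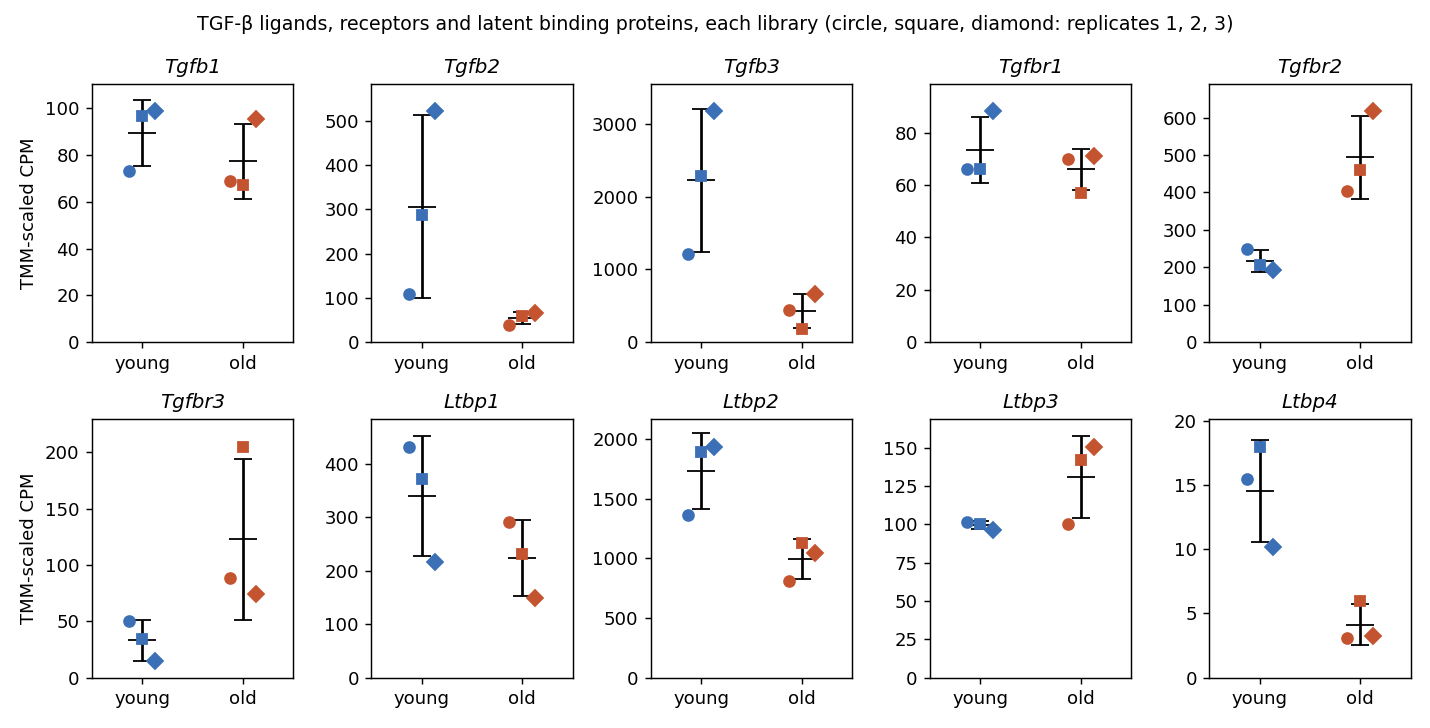
Level of each gene in each library, as TMM-scaled CPM on a linear axis from 0, with young libraries in blue and old libraries in red; horizontal marks are means and bars are SD (n = 3 each). Tgfb2, Tgfb3, Ltbp2 and Ltbp4 had all old libraries below all young ones, Tgfbr2 and Tgfbr3 had them above, and the groups of the other 4 genes overlapped.

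Tgfbr1 (ENSRNOG00000007036), the type I receptor kinase, had 66.0, 66.2 and 88.2 CPM in young and 70.0, 56.9 and 71.0 CPM in old libraries. The groups overlapped, and the log2 fold change of -0.15 had a 95% interval of -0.53 to 0.22 (adjusted p = 0.568 from edgeR).

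Tgfbr2 (ENSRNOG00000013265), the type II receptor that binds ligand first, had 250, 207 and 192 CPM in young and 403, 461 and 617 CPM in old libraries. Each old library was well above each young one. With means of 216 ± 29.9 and 493 ± 111 CPM (SD, n = 3 each), the log2 fold change was 1.19 ± 0.19 (SE; adjusted p = 0.0600 from edgeR and 2.90e-06 from DESeq2), and this was the lowest edgeR p of the 10 genes. Without old replicate 1, edgeR called Tgfbr2 as well (log2 fold change 1.32, adjusted p = 0.0289), whereas without old replicate 3 the DESeq2 call was lost, because the log2 fold change there was 0.99 (adjusted p = 1.44e-06 from DESeq2).

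Tgfbr3 (ENSRNOG00000002093), betaglycan, had 50.4, 34.2 and 14.5 CPM in young and 88.6, 205 and 74.7 CPM in old libraries. The old libraries lay above the young, and old replicate 2 stood far above the other two. The log2 fold change was 1.89 ± 0.56 (SE; adjusted p = 0.139 from edgeR and 0.00583 from DESeq2). It was 1.31 in edgeR without old replicate 2, where DESeq2 no longer called the gene (adjusted p = 0.0978 from DESeq2), and the DESeq2 call was also lost without young replicate 2 (adjusted p = 0.0552 from DESeq2).

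Ltbp1 (ENSRNOG00000033090), the binding protein that targets the latent complex to fibronectin and fibrillin, had 431, 371 and 216 CPM in young and 290, 231 and 148 CPM in old libraries. Young replicate 3 lay among the old libraries. The log2 fold change of -0.60 (95% interval -1.40 to 0.19) had an adjusted p of 0.315 from edgeR and 0.246 from DESeq2.

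Ltbp2 (ENSRNOG00000012094), which sits on fibrillin microfibrils and, unlike the others, does not bind latent TGF-β, had 1368, 1891 and 1936 CPM in young and 812, 1131 and 1044 CPM in old libraries. The groups did not overlap. Its log2 fold change of -0.80 ± 0.20 (SE; adjusted p = 0.113 from edgeR) had an adjusted p of 0.00337 from DESeq2, but lay inside the limit of 1 set for a call.

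Ltbp3 (ENSRNOG00000020813), a binding protein known from bone and tooth growth, varied little among the young libraries, at 101, 100.4 and 96.4 CPM, and reached 100.5, 142 and 151 CPM in the old. Old replicate 1 was within the young range and the other old libraries above it. The log2 fold change was 0.40 ± 0.16 (SE; unadjusted p = 0.0450 and adjusted p = 0.213 from edgeR).

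Ltbp4 (ENSRNOG00000020871), which takes part in elastic fiber assembly and carries mainly TGF-β1, had 698, 1081 and 501 counts in young and 155, 309 and 175 counts in old libraries, few enough for counting error to matter more than for the other 9 genes. These correspond to 15.5, 18.0 and 10.2 CPM in young and 3.12, 5.94 and 3.27 CPM in old, without overlap. The log2 fold change was -1.82 ± 0.34 (SE; adjusted p = 0.0658 from edgeR and 1.39e-05 from DESeq2), and edgeR gave -2.19 to -1.64 with each library left out. Across the 10 genes, the groups did not overlap for 6, a share to be set beside 29.2% of all genes. Old lay above young for 2 of them (14.5% of all genes) and below for 4 (14.7%).

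**Figure D2:**
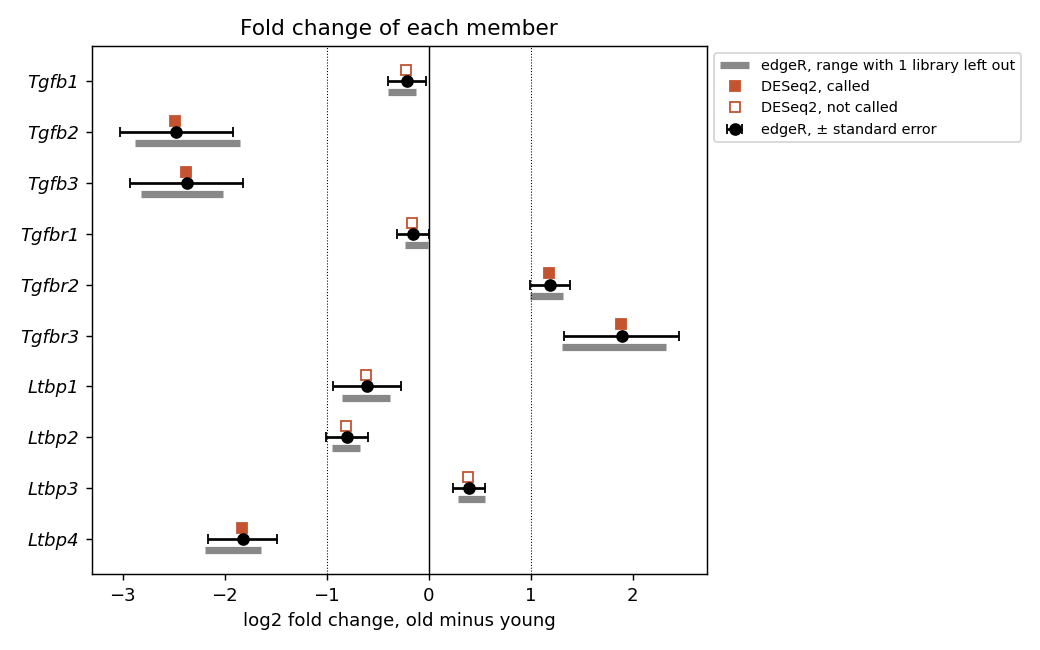
Log2 fold change of old minus young VSM cells for each gene, with edgeR values as black points (bars are standard errors), DESeq2 values as squares and the range of the edgeR values with 1 library left out as grey bars; dotted lines mark -1 and 1. Tgfb2 (-2.47), Tgfb3 (-2.37) and Ltbp4 (-1.82) lie to the left and Tgfbr2 (1.19) and Tgfbr3 (1.89) to the right of those lines, and these 5 have filled squares, called by DESeq2.

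The balance between family members was compared within each library, where the scaling of the library cancels. Relative to Tgfb1, Tgfb2 had log2 ratios of 0.58, 1.57 and 2.40 in young and -0.81, -0.17 and -0.53 in old libraries. The log2 ratio of Tgfb3 to Tgfb1 was 4.05, 4.56 and 5.01 in young and 2.69, 1.45 and 2.79 in old libraries. Old minus young, the mean log2 ratio differed by -2.02 for Tgfb2 to Tgfb1 and by -2.23 for Tgfb3 to Tgfb1, and neither ratio overlapped between the groups. The ratio of Tgfb3 to Tgfb2 differed by -0.21 (p = 0.900, exact permutation test, two-sided), and its sign turned to 0.39 without old replicate 2.

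For the signaling receptors, the log2 ratio of Tgfbr1 to Tgfbr2 was -1.92, -1.65 and -1.12 in young and -2.52, -3.02 and -3.12 in old libraries, again without overlap and with a difference of -1.32. These 3 separated ratios had an exact two-sided permutation p of 0.1, the smallest that 3 libraries per group allow, and 0.233 after Benjamini-Hochberg adjustment over the 7 ratios computed. Tgfbr3 to Tgfbr2 differed by 0.74 (p = 0.400), Ltbp1 to Ltbp3 by -0.97 (p = 0.200) and Ltbp2 to Ltbp1 by -0.20 (p = 0.700, exact permutation tests, two-sided), and the groups overlapped in each.

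**Figure D3:**
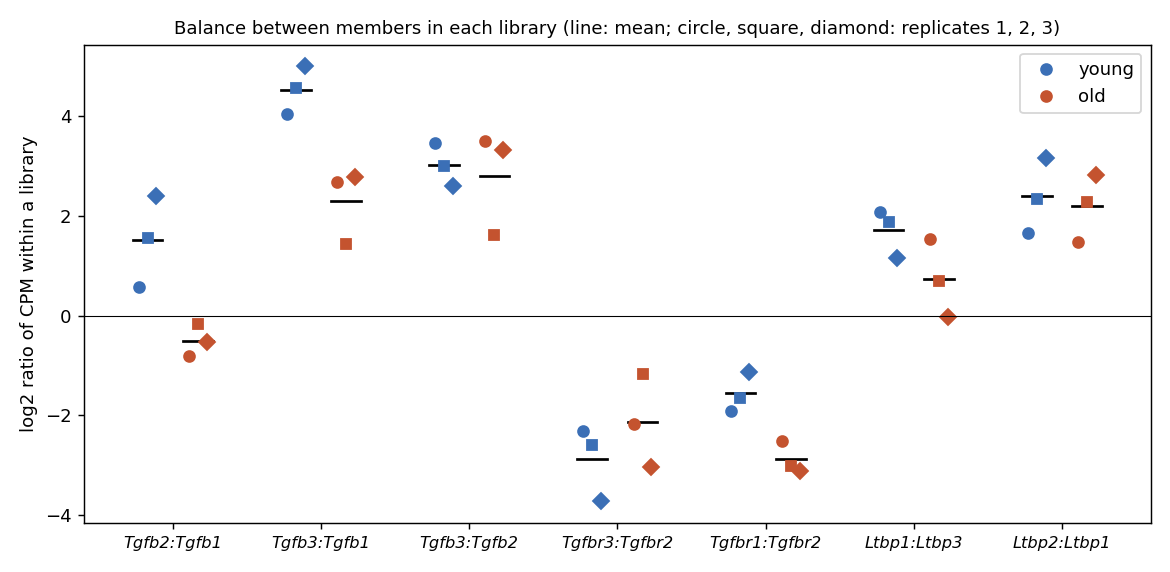
Log2 ratio of the CPM of paired genes within each library, with young libraries in blue, old libraries in red, a line at each mean and 3 libraries per group. The ratios Tgfb2:Tgfb1, Tgfb3:Tgfb1 and Tgfbr1:Tgfbr2 were lower in every old library than in any young one, and the other 4 ratios overlapped.

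Other genes of the pathway were taken from 6 lists of genes that process, anchor, bind, transmit or answer TGF-β signals. These lists were written with earlier results of these data known. The shares called in them therefore describe the lists and do not test them. In all 85 of their 91 genes were in the table, counting each once and without the 10 genes above. DESeq2 called 13 of them (15.3%), 6 higher and 7 lower, beside 5.56% of all genes (2.25% higher and 3.31% lower), and these shares of all genes apply to each list below. EdgeR called 0, and 24 of the 85 had an edgeR p below 0.05 before adjustment, beside 22.6% of all genes. The median log2 fold change of the 85 genes was 0.15, beside 0.02 over all genes.

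Smad proteins carry the signal to the nucleus. Of 20 genes for them and their regulators, 0 were called by either test, and the median log2 fold change was 0.02. In DESeq2, 4 of the 20 had an adjusted p under 0.05, beside 12.2% of all genes. The groups did not overlap for 8 of the 20, 4 higher and 4 lower in old cells, beside 29.2% of all genes. Smad2, Smad3 and Smad4 had log2 fold changes of -0.09, 0.26 and 0.20 (adjusted p = 0.663, 0.479 and 0.267 from edgeR). For Smad4 each old library lay above each young one, while Smad2 and Smad3 overlapped. Smad7, the inhibitory Smad that TGF-β itself induces, had 35.8, 47.7 and 42.3 CPM in young and 25.7, 24.1 and 33.6 CPM in old libraries, without overlap (log2 fold change -0.59, adjusted p = 0.129 from edgeR and 0.0308 from DESeq2).

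The list of processing and activation genes had a median of 0.29, above its range of -0.053 to 0.23 with each library left out. DESeq2 called 2 of its 13 genes, both higher. They were the gelatinase gene Mmp2 (log2 fold change 1.61, adjusted p = 0.108 from edgeR and 0.000812 from DESeq2) and the membrane-type protease gene Mmp14 (1.27, adjusted p = 0.130 from edgeR and 0.00886 from DESeq2), the latter at 0.78 without old replicate 3. DESeq2 called Mmp14 in 3 of the 6 fits with a library left out, and not without young replicate 1, young replicate 2 or old replicate 3. Thbs1, whose product thrombospondin can release TGF-β from latency, was at 25655 ± 1151 and 23653 ± 1714 CPM (SD, n = 3 each), or -0.12 as log2 fold change (adjusted p = 0.795 from edgeR). Of 11 matrix partners 1 was called by DESeq2, Tgm2, the transglutaminase that crosslinks LTBPs to matrix (-1.83, adjusted p = 0.102 from edgeR and 0.000664 from DESeq2). The list had a median of 0.20, with Fbn1 (fibrillin) at 0.50 and Fn1 (fibronectin) at 0.18 (adjusted p = 0.369 and 0.627 from edgeR). For Fn1 the old libraries all lay above the young, while those of Fbn1 overlapped.

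Of the 8 binding proteoglycans and co-receptors, 7 were higher in old cells and the median was 0.59, and DESeq2 called 3. Endoglin (Eng), a co-receptor best known from endothelium, had 132, 349 and 87.2 CPM in young and 47.9, 8.64 and 4.89 CPM in old libraries (log2 fold change -3.21, adjusted p = 0.151 from edgeR and 0.0271 from DESeq2). The proteoglycan gene Aspn, whose product binds TGF-β, had 15.5, 5.50 and 20.8 CPM in young and 134, 111 and 180 CPM in old libraries (3.34, adjusted p = 0.0557 from edgeR and 1.95e-10 from DESeq2). Dcn (decorin), also a fibroblast marker, had 19.9, 1.16 and 2.28 CPM in young and 26.0, 411 and 119 CPM in old libraries (4.58, adjusted p = 0.156 from edgeR and 0.0185 from DESeq2). Eng was called by DESeq2 in 1 and Dcn in 2 of the 6 fits with a library left out, and Aspn in 6 of 6. The Eng log2 fold change was -4.81 without old replicate 1 and -2.42 without young replicate 2, and that of Dcn ran from 3.23 without old replicate 2 to 6.76 without young replicate 1.

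Genes known to respond to TGF-β did not move one way. Among 31 genes, 16 were higher and 15 lower, with a median of 0.01, and DESeq2 called 2 higher and 4 lower. The contractile genes Acta2 (-2.27), Cnn1 (-2.56) and Tagln (-1.54) were lower (adjusted p = 0.0636, 0.0561 and 0.0697 from edgeR, and 2.66e-08, 4.93e-09 and 2.85e-06 from DESeq2), and they belong to the smooth muscle marker list as well. Tgfbi, a matrix protein gene named for its induction by TGF-β, was higher, at 47.7, 12.4 and 7.92 CPM in young and 378, 137 and 107 CPM in old libraries (3.20, adjusted p = 0.117 from edgeR and 0.00812 from DESeq2). Its log2 fold change was 4.35 without young replicate 1 and 2.43 without old replicate 1, and DESeq2 called it in 4 of the 6 fits. The collagen gene Col3a1 was also called higher by DESeq2 (1.31, adjusted p = 0.111 from edgeR and 5.74e-05 from DESeq2). Ccn2, the connective tissue growth factor gene, had 6022 ± 838 and 6088 ± 1193 CPM (SD, n = 3 each), or 0.02 as log2 fold change (adjusted p = 0.975 from edgeR). In the activin branch, which shares Smad2 and Smad3, DESeq2 called 1 of 8 genes, the activin antagonist Fstl3 (-1.45, adjusted p = 0.0651 from edgeR and 3.20e-05 from DESeq2), and the list median was -0.25.

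**Figure D4:**
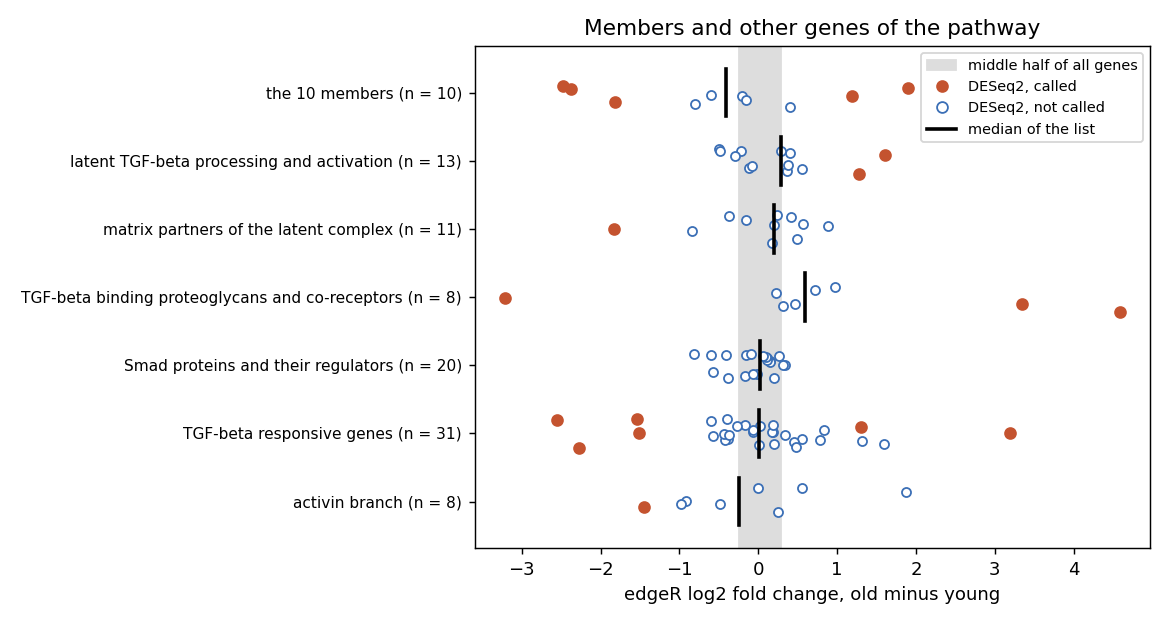
EdgeR log2 fold change of each gene of the pathway lists (old minus young), with genes called by DESeq2 filled in red, the list median as a vertical line and the span from the lower to the upper quartile of all genes (-0.24 to 0.29) in grey. The 10 genes have 5 filled points on both sides, the Smad list has 0, and the responsive genes have 4 on the left and 2 on the right around a median of 0.01.

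The genes nearest in pattern to Tgfbr2 and Ltbp4, the 2 with the lowest edgeR p, were taken by the root mean square difference of centred log2 CPM over the 6 libraries. For Tgfbr2 they were the transcription factor genes Maf (0.12) and Mitf (0.15), with Tcp11l2 (0.14), Vav3 (0.15) and Nat8f1 (0.15). For Ltbp4 they were Cd200 (0.11), a membrane glycoprotein gene, Fras1 (0.16), a basement membrane matrix gene, Rufy4 (0.25), the nonmuscle myosin gene Myh14 (0.29) and ENSRNOG00000070827 (0.19), which has no symbol. With 6 libraries, such likeness describes the same age difference and library spread. Some neighbors had low levels, such as Rufy4 (means of 0.42 CPM in young and 0.15 in old) and Vav3 (0.64 and 1.39). In the pathway lists were 0 of these 10 neighbors, beside 85 of all 14475 genes, so few genes that 0 carries no information.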

How the data were processed

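The authors deposited unnormalized gene counts. By the Methods and the submitters' processing notes, reads were trimmed with Cutadapt 3.5 through Trim Galore 0.6.7, aligned with STAR 2.7.10b to Rnor 6.0 and counted with featureCounts (Subread 2.0.8). The kit keeps strand, but which strand, mate and multi-mapping options were used in counting is not stated. All 14475 genes, of which 1518 had no symbol, entered the fits without a further filter, since 10 or more counts in 3 or more libraries were already present for each. Of the per-sample columns, 0 were unused.

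Old was compared with young in R 4.3.3 with edgeR 4.0.16 (TMM, quasi-likelihood F test, Benjamini-Hochberg adjustment over all genes, thresholds of 0.05 and an absolute log2 fold change of 1). The standard error (SE) was taken from the size of the log2 fold change over the root of its F. DESeq2 1.42.0 and limma 3.58.1 (voom) were run on the same counts, and all 3 were tested on simulated counts. Library pairs differed by a chi-square per gene of at least 67.1, so each counted as 1 sample. The labels do not name separate animals, while the Methods give 3 rats per group.

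The 10 genes, the pathway lists and the cell type markers were chosen with earlier results of these data known. Named genes were the 10, 11 core pathway genes, the genes of a pathway list that edgeR or DESeq2 called, and 5 neighbors in pattern for each of 2 genes. Of these, 1 gene is not reported here. Same-numbered young and old libraries had correlated deviations of 0.0614, 0.326 and 0.320 over 12257 genes, and those of unlike number -0.458 to 0.359. These values do not settle whether the numbers mark pairs. The labels and the Methods name no pairs, and the main fit used age alone. Alternatives were other tests, scalings and filters, halved counts, a replicate block and each library left out.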

Additional observations from a re-analysis of the deposited data

How the results depend on the processing

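The 10 genes kept the direction of their log2 fold change under each of the 21 alternatives, among which the setting without a fold limit repeats the main fit. For Tgfbr1 the value was only -0.0019 in edgeR without young replicate 3, too small to be read as a direction. Their number called was 0 in edgeR and 5 in DESeq2, and lay between 0 and 5 with each library left out (0 to 1 in edgeR, 4 to 5 in DESeq2). Their number at an unadjusted p under 0.05 was 6 to 8 in those fits. Over all genes, edgeR called 1, DESeq2 805, limma-voom 0, edgeR on genes at 1 CPM or more in 3 libraries 65, and the fits without a library 0 to 1377 (0 to 732 in edgeR, the highest without old replicate 1). No call of the 10 genes changed with RLE or library size scaling, which moved the median of all genes by -0.01 and 0.01, nor with halved counts or either filter.

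With the replicate number as a block, edgeR called 1 gene and 0 of the 10, the same counts as without it. Again 7 of the 10 had an unadjusted p under 0.05, but Ltbp1 took the place of Ltbp3. The adjusted p of Ltbp1 from edgeR was 0.103 with the block (log2 fold change -0.60 ± 0.11, SE) and 0.315 without it. That of Ltbp3 was 0.256 with the block and 0.213 without it. Young replicate 1 correlated best with old replicate 2 (0.359), not with its own number, whereas young replicates 2 and 3 correlated best with their own (0.326 and 0.320).

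With 1 library left out, list medians ran from -0.053 to 0.23 for processing and activation, 0.090 to 0.21 for matrix partners, -0.12 to 0.12 for Smad proteins, -0.13 to 0.20 for responsive genes, 0.32 to 0.74 for proteoglycans and co-receptors, and -0.29 to -0.10 for the activin branch. The sign for processing and activation, Smad proteins and responsive genes was not stable, and the cause was not tested. The ratio of Tgfb3 to Tgfb2 ran from -0.56 to 0.39, that of Ltbp2 to Ltbp1 from -0.56 to 0.19, and the log2 fold change of Ccn2 from -0.16 to 0.13. Ltbp4 had the fewest counts of the 10 genes. With halved counts its log2 fold change was -1.82 ± 0.33 (SE; adjusted p = 0.065 from edgeR), close to that of the main fit.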
